A study of Mus musculus with 24 samples.

Results

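Glycolytic isoenzymes are enzymes encoded by different genes that catalyse the same reaction of glycolysis, and several of them are known to be replaced by another form as tissues differentiate. The genes described here are Aldoa and Aldoc (aldolase), Eno1, Eno2 and Eno3 (enolase), Pfkl and Pfkp (phosphofructokinase), Ldha and Ldhb (lactate dehydrogenase) and the glucose transporter gene Slc2a3. They were chosen by name, with earlier results of these data known, and every probe annotated to 1 of these symbols was used. Of the 10 genes, 9 had a probe, 15 probes in all among the 46643 on the array, and no probe carried the symbol Eno1, so Eno1 was not measured. RNA came from (C3H/HeH x 101/H)F1 mouse embryos with no other treatment or engineered allele, 4 embryos each at E8.5, E10.5 and E12.5 (embryonic days, counted post coitum). The labels call the tissue brain, whereas the study's methods describe whole heads cut from the body and split along the midline, with only embryos of even left and right midline marker levels kept. The left and the right side of each of the 12 embryos went on an Illumina array of its own, 24 in all.

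Glycolysis breaks glucose down to pyruvate, and lactate dehydrogenase converts pyruvate to lactate and back. Phosphofructokinase is its main controlled step, aldolase splits the sugar, and enolase acts shortly before pyruvate. The A form of lactate dehydrogenase is associated with lactate production and the B form with tissues that oxidise their fuel, and both the A form and Aldoa are known targets of hypoxia-inducible factors. In the adult brain Eno2 is known as the neuron-specific enolase and Aldoc as the brain aldolase, and Eno3 as the muscle enolase.

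Values are normalized signals, the deposited intensities after quantile normalisation, with both sides of an embryo averaged, and listed for embryos 1, 2, 3 and 4. Changes are log2 fold changes (log2FC) of the signal plus a constant of 119.5, which understates the changes of dim genes. A gene was measured by its brightest probe. It rose or fell where the Benjamini-Hochberg adjusted p over all probes was under 0.05 in LIMMA, a linear model fitted to all arrays. A signal at or under 27.2, the size that 99% of the negative values stay within, is called near background. The mean deposited intensity of an array ranged from 149.1 to 323.2. Right-side arrays fell into different sets at every stage: on a component with 27.4% of the variance, those of embryos 1 and 2 had scores from 20.35 to 31.92, those of embryos 3 and 4 from −47.24 to −28.38, and left-side arrays from −1.205 to 13.05. Changes were therefore also taken within each of 4 sets of arrays, left and right sides of embryos 1 and 2 and of embryos 3 and 4.

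Over the whole interval from E8.5 to E12.5 all 9 measured genes changed. Aldoa, Eno3, Pfkl, Pfkp, Ldha and Slc2a3 fell, and Aldoc, Eno2 and Ldhb rose, so each of the aldolase, enolase and lactate dehydrogenase pairs held a gene that fell and a gene that rose. The background was high, since 20.8% of all probes and 50.1% of those over the noise limit passed in this comparison, 9.84% of all probes being higher and 11% lower. The median log2FC of the 9 genes was −1.89 against −0.01 over all probes and −0.06 over those over the noise limit. Between E8.5 and E10.5 6 of the 9 fell and 1, Ldhb, rose (10.7% of all probes passed and 28% of those over the noise limit, 4.91% of all higher and 5.8% lower). Between E10.5 and E12.5 5 fell and 2, Aldoc and Eno2, rose (10.4% of all probes and 27.3% of those over the noise limit, 5.92% of all higher and 4.51% lower). The medians of the genes were −0.74 and −0.62 in these steps, and those of all probes 0.00 and −0.01. For probes over the noise limit they were −0.01 and −0.04. These are measurements of mixed tissue, in which fewer cells of a type and less RNA per cell cannot be told apart. The calls that passed had the same direction in 4 of 4 sets of arrays. The left and right sets hold the same embryos, so the 4 sets are not independent replicates.

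**Figure D1:**
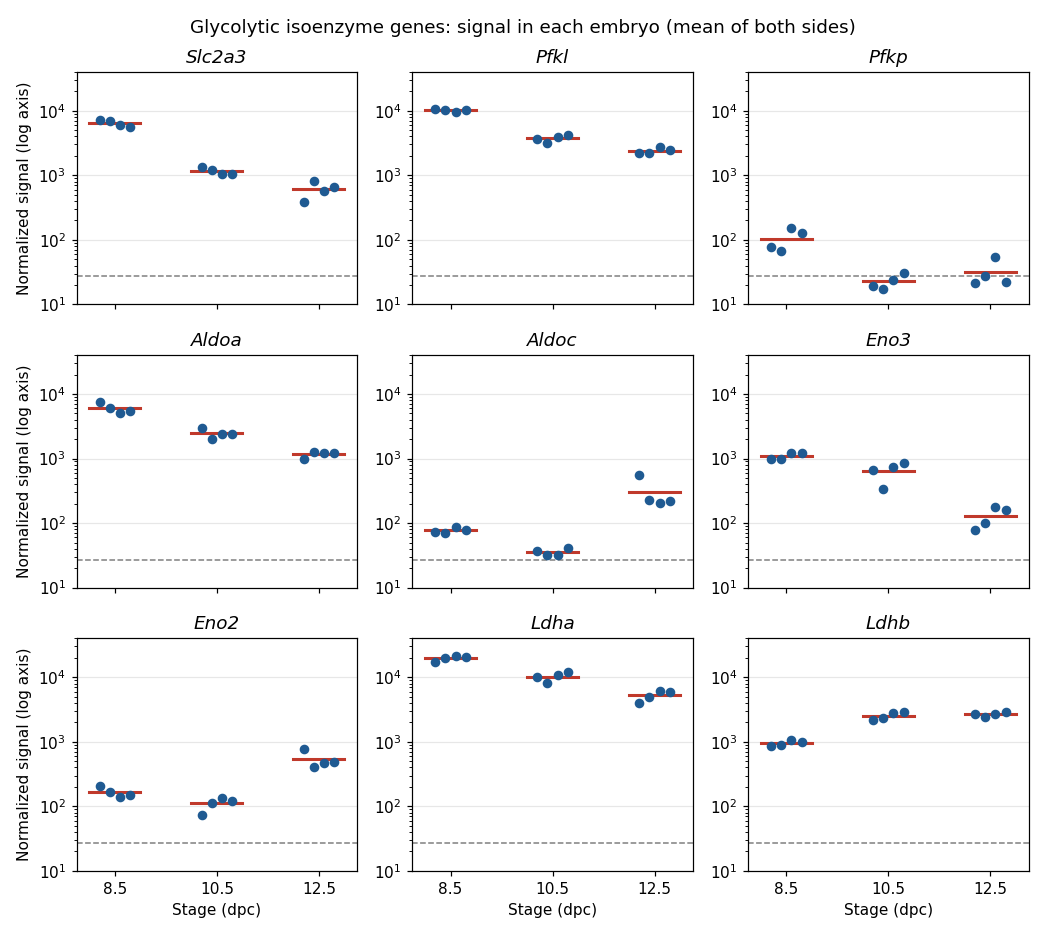
Normalized signal (log axis) of the 9 measured genes at E8.5, E10.5 and E12.5; points are embryos with both sides averaged, red lines stage means, and the dashed line the noise limit of 27.2. Aldoc, Eno2 and Ldhb end above their E8.5 points and the other 6 genes end below theirs, with Pfkp at or near the noise limit from E10.5.

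**Figure D2:**
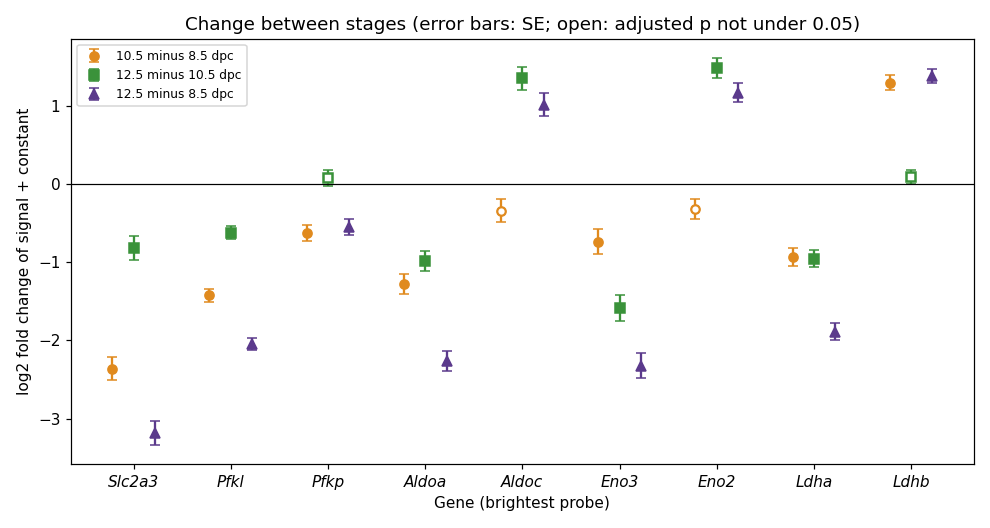
Log2 fold change of each gene (brightest probe) for the 2 steps and for the whole interval, with error bars of 1 SE from LIMMA; open symbols did not pass. The rise of Ldhb (1.30) came in the first step and those of Aldoc (1.35) and Eno2 (1.48) in the second.

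The promoters of the lactate dehydrogenase and aldolase genes are shown as examples of pairs that moved in opposite directions; the enolase pair did so too, and its windows are given by their counts only. They are RefSeq sequences of mouse build GRCm38.p6, from 250 bases before to 50 bases after an annotated start, written 5′ to 3′ on the strand of the gene. Capitals mark ACGTG or GCGTG on either strand, the core recognised by hypoxia-inducible factors. ACGTG also forms part of the palindrome CACGTG, an E-box. The windows are Ldha at chr7:46845554-46845853 (plus strand, 1 of 2 windows), Ldhb at chr6:142507908-142508207 (minus strand), Aldoa at chr7:126799129-126799428 (minus strand, 1 of 3) and Aldoc at chr11:78322823-78323122 (plus strand, 1 of 2).
Ldha: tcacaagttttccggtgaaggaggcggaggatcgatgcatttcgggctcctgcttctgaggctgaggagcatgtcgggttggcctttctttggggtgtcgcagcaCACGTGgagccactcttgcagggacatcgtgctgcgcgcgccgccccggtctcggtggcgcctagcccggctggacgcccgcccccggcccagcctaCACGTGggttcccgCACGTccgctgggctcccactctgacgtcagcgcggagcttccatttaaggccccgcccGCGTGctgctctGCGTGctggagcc
Ldhb: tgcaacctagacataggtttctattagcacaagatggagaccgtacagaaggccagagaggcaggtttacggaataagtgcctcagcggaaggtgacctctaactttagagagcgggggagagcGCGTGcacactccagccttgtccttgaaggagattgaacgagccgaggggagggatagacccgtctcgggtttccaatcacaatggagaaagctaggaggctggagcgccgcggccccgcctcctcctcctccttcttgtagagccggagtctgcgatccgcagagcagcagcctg
Aldoa: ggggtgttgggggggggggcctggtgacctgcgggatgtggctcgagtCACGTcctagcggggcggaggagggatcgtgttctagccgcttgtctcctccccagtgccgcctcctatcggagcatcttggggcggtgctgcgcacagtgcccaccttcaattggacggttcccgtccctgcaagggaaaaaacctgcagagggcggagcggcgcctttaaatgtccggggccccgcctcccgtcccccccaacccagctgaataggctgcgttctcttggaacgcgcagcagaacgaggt
Aldoc: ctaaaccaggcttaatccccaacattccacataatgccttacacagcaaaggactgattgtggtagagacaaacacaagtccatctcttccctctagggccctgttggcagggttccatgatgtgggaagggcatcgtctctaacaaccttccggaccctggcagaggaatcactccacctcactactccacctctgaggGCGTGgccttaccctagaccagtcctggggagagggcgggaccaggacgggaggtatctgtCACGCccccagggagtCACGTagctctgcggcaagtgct

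The Ldha window shown held 5 marked stretches, of which 2 were CACGTG, and the other Ldha window held 2, both GCGTG. The single Ldhb window held 1, a GCGTG. The Aldoc window shown held 3 and the other 1, while the Aldoa window shown held 1 and the others 1 and 0. The single Eno3 window held 1. The counts thus varied between windows of the same gene, and no difference between the genes was tested. Of the 15 windows that the table gave for these genes (9 genes, Eno1 included), 13 held ACGTG or GCGTG, against 43.8% of all 32851 windows of the same length. Some windows of Aldoa and of Eno1 overlap and hold the same matches, so the 15 are not independent. Of all windows, 19.6% held ACGTG, 32.4% GCGTG and 7.15% CACGTG. The single Eno2 window and 1 of the 3 Aldoa windows held none. The GC content of the 15 windows ran from 52.7% to 69%. A match is a run of letters and not a bound site, and genes that fell and genes that rose both had matches.

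Lactate dehydrogenase showed opposite changes that began in the first step. Ldha, the A subunit, had signals of 17279, 19742, 21026 and 20298 at E8.5. They were 10232, 8136, 10770 and 11870 at E10.5 and 4062, 4964, 6113 and 5854 at E12.5. No embryo of a later stage reached the lowest embryo of an earlier stage. Ldha fell by 0.93 and then by 0.95 on the log2 scale (SE 0.11 each; adjusted p = 1.68e-06 and 1.06e-06 from LIMMA), a 3.73-fold lower mean signal at E12.5 than at E8.5.

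Ldhb, the B subunit, had 861, 885, 1082 and 987 at E8.5, 2141, 2313, 2787 and 2855 at E10.5, and 2656, 2454, 2702 and 2894 at E12.5. All embryos from E10.5 on lay above all those of E8.5, and the last stages overlapped. The gene rose in the first step (log2FC 1.30, SE 0.09, adjusted p = 7.21e-10 from LIMMA; 2.65-fold in mean signal) and had a log2FC of 0.09 in the second (adjusted p = 0.74). A dimmer Ldhb probe, whose stage means ran from 19.9 to 27.5, did not pass in any comparison. The log2 difference of Ldhb over Ldha was taken in each embryo. Its mean over the embryos of a stage, which differ between stages, was higher by 2.23 in the first step, by 1.04 in the second and by 3.27 over both. These changes were unequal in an exact two-sided permutation test of 4 against 4 embryos (p = 0.0286 each, the smallest value that 70 splits allow; 0.033 after Benjamini-Hochberg over 15 such tests of 5 pairs).

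The aldolases also changed unequally. Aldoa, the widely expressed aldolase, had signals of 7444, 6157, 5141 and 5518 at E8.5, 2936, 2035, 2420 and 2401 at E10.5 and 996, 1253, 1212 and 1207 at E12.5. The 3 stages did not overlap. It fell by 1.28 and then by 0.98 on the log2 scale (SE 0.12 each; adjusted p = 7.97e-08 and 3.23e-06 from LIMMA), a 5.20-fold lower mean signal over both steps.

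Aldoc was dim at E8.5, with 72.1, 70.8, 85.6 and 79.0. At E10.5 its signals were 37.5, 31.6, 32.3 and 41.6, and at E12.5 562, 224, 201 and 218. All E12.5 embryos lay above all earlier ones, and embryo 1 stood far above the other 3. In the first step the log2FC was −0.34 (adjusted p = 0.198) although no embryos overlapped. It rose in the second step (log2FC 1.35, SE 0.15, adjusted p = 4.57e-07 from LIMMA) and over both (1.01, adjusted p = 1.03e-05). Without E12.5 embryo 1 these values were 1.09 and 0.75, and the first step passed as a decrease (−0.33, adjusted p = 1.79e-04). The second Aldoc probe was near background at every stage.

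The stage mean of the log2 difference of Aldoc over Aldoa was higher by 0.94, 2.34 and 3.28 in the first step, the second and both (exact permutation p = 0.0286 each, 0.033 adjusted). The size of the first depended on how signals near 0 were treated: the mean signals of both genes were lower at E10.5 than at E8.5 by a like factor, 2.15 for Aldoc and 2.48 for Aldoa, and the difference was 0.70 with normexp background correction (exact permutation p = 0.0286) and 0.20 with signals floored at 1 (exact permutation p = 0.371).

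**Figure D3:**
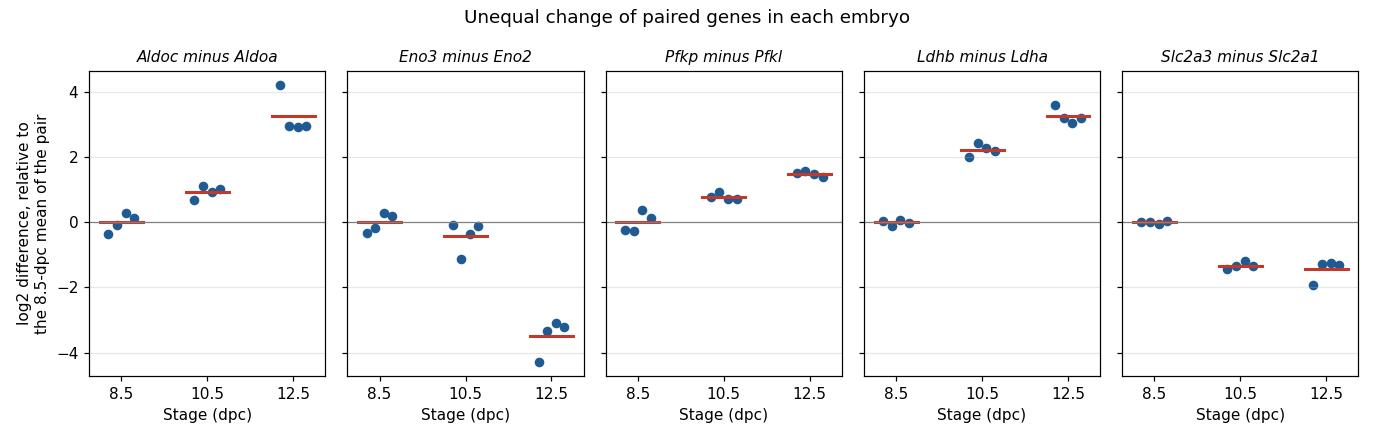
Difference of the log2 values of paired genes in each embryo, set to 0 at the E8.5 mean of the pair, so that points away from 0 mark unequal change and not a difference in level; red lines are stage means over 4 embryos. Ldhb minus Ldha moves up at each step (to 3.27), Aldoc minus Aldoa (to 3.28) and Eno3 minus Eno2 (to −3.49) move mostly in the second step, and Slc2a3 minus Slc2a1 (−1.32) in the first.

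Enolase was measured by Eno2 and Eno3 alone. Eno2 had signals of 210, 170, 138 and 152 at E8.5, 73.9, 114, 135 and 123 at E10.5 and 785, 409, 477 and 484 at E12.5. The E12.5 embryos lay above all others, again with embryo 1 the highest. The log2FC of the first step was −0.32 (adjusted p = 0.131), and the gene rose in the second (log2FC 1.48, SE 0.12, adjusted p = 8.02e-09 from LIMMA), to a 3.22-fold higher mean signal than at E8.5. Without E12.5 embryo 1 the log2FC of the second step was 1.32, and the first step passed as a decrease (−0.32, adjusted p = 0.0287).

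Eno3 had 999, 984, 1234 and 1228 at E8.5, 659, 342, 741 and 839 at E10.5 and 78.5, 102, 176 and 159 at E12.5. The stages did not overlap. It fell in the first step (log2FC −0.74, SE 0.16, adjusted p = 0.0028 from LIMMA) and in the second (−1.59, adjusted p = 1.64e-07), to an 8.63-fold lower mean signal over both. The first call was lost when the sides of an embryo were averaged before the fit (adjusted p = 0.0547) and on right sides alone (0.312). Eno3 minus Eno2 changed by −3.07 in the second step and −3.49 over both (exact permutation p = 0.0286 each, 0.033 adjusted), and by −0.42 in the first (exact permutation p = 0.229, 0.245 adjusted).

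Markers of cell types moved in these samples too. The summed signal of 10 neuronal genes ranged over embryos from 375.4 to 505.4 at E8.5, from 2831 to 5130 at E10.5 and from 14360 to 22720 at E12.5, with embryo 1 of the last stage at 22720 and the other 3 between 14360 and 15240. Of the 10, 7 rose in each step, where 4.91% and 5.92% of all probes rose. Of these 10 genes, 5 were near background at E8.5 (Mapt, Dcx, Syt1, Gap43 and Ina) and none later. Snap25, a synaptic membrane fusion protein, had means of 38.2, 511 and 1935. Eno2 and Aldoc passed as higher in the second step and not in the first, and E12.5 embryo 1 was the highest of its stage in the neuronal sum, in Eno2 and in Aldoc. The order was mixed at the other stages. E8.5 embryo 1 was lowest in the sum (375.4) but highest in Eno2 (210), and embryo 3 highest in the sum (505.4) and Aldoc (85.6). E10.5 embryo 2 was highest in the sum (5130) but lowest in Aldoc (31.6), and embryo 1 lowest in the sum (2831) and Eno2 (73.9). Of 10 genes of neural progenitors and radial glia, 5 rose between E8.5 and E10.5 and 1 fell (4.91% and 5.8% of all probes). The 5 were Nes, Hes5, Fabp7, Slc1a3 and Vim. In the second step 1, Slc1a3, rose and 1, Hes5, fell (5.92% and 4.51% of all probes). The summed signal of these 10 genes ranged from 2624 to 3386, from 6646 to 10050 and from 7543 to 10200 at the 3 stages. Sox1 and Fabp7 were near background throughout. The part of cell composition in the changes of Eno2 and Aldoc was not tested.

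The summed signal of 12 cardiac and skeletal muscle genes was 7773, 864, 6154 and 6602 in the E8.5 embryos, between 127.2 and 174.3 at E10.5 and between 680.4 and 2761 at E12.5. Of the 12, 6 fell in the first step (5.8% of all probes did). In the second 1, Myh7, rose and none fell (5.92% and 4.51% of all probes), while Eno3 fell in both. At E8.5 Eno3 was at 999, 984, 1234 and 1228 in embryos 1, 2, 3 and 4. Of these, embryo 1 was the highest in muscle genes and embryo 2 the lowest. The part of muscle in the changes of Eno3 was not tested. The defining skeletal genes Myog, Myh3 and Ckm were near background at every stage, as were Myh6 and Tnni1. Summed signals of 7 erythroid genes ranged from 11400 to 43980, from 51980 to 63690 and from 11740 to 33690 at the 3 stages, those of 7 cranial mesenchyme genes from 1174 to 1331, from 1136 to 2295 and from 425.6 to 2532, and those of 5 endothelial genes from 889.2 to 1032, from 445.7 to 1022 and from 614 to 901.5. E12.5 embryo 1 was the lowest of its stage in the mesenchyme (425.6, others from 1807) and erythroid sums (11740, others from 22550). The part of these lists in the changes was not tested.

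Phosphofructokinase was followed by the liver-type gene Pfkl and the platelet-type gene Pfkp. Pfkl had signals of 10743, 10318, 9644 and 10187 at E8.5, 3676, 3201, 3988 and 4169 at E10.5 and 2191, 2195, 2784 and 2424 at E12.5. No stages overlapped. It fell by 1.42 and then by 0.62 on the log2 scale (SE 0.08 each; adjusted p = 1.61e-11 and 5.27e-06 from LIMMA), a 4.26-fold lower mean signal over both steps.

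The brightest Pfkp probe had 76.6, 66.4, 150 and 126 at E8.5, 19.02, 17.2, 23.6 and 31.1 at E10.5 and 21.4, 27.9, 55.2 and 22.4 at E12.5. The E8.5 embryos lay above all others, and most later values were at or under the noise limit. It fell in the first step (log2FC −0.63, SE 0.10, adjusted p = 9.65e-05 from LIMMA) and had a log2FC of 0.08 in the second (adjusted p = 0.814); on right sides alone the first call was lost (adjusted p = 0.0554), as was that over both steps (0.0706). The other 4 Pfkp probes were near background at every stage, and 1 of them, with negative signals at all stages, passed as lower in the first step (adjusted p = 5.8e-04) and over both (0.0226). Pfkp minus Pfkl changed by 0.79, 0.70 and 1.49 (exact permutation p = 0.0286 each, 0.033 adjusted), but the sign of the first turned to −0.68 with signals floored at 1 (exact permutation p = 0.0857) and the value over both steps to 0.28 (exact permutation p = 0.457), so no order of their changes could be given for these. Leaving out any E10.5 embryo also lost the first of these calls (0.74 to 0.81, exact permutation p = 0.0571 each). In the second step Pfkp started at or near the noise limit, so a further fall could not be seen. The 0.70 came mostly from the fall of Pfkl (−0.62, against 0.08 for Pfkp) and cannot show whether the genes changed unequally. Pfkm, the muscle-type gene of the same enzyme, rose in the second step (log2FC 0.58, adjusted p = 1.74e-07 from LIMMA), from a mean of 1426 ± 156 to 2184 ± 171 (SD, n = 4), although its dimmer probe did not pass.

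Of all 9 genes, Slc2a3, a high-affinity glucose transporter known from neurons and the early embryo, had the largest decrease over the interval. Its signals were 7088, 6888, 5931 and 5517 at E8.5, 1326, 1195, 1034 and 1056 at E10.5 and 380, 810, 565 and 669 at E12.5. The stages did not overlap, and embryo 1 was the lowest at E12.5. It fell in the first step (log2FC −2.36, SE 0.15, adjusted p = 1.52e-10 from LIMMA) and in the second (−0.82, adjusted p = 4.62e-04), to a 10.49-fold lower mean signal. The second call was lost with median scaling of the arrays (−0.69, adjusted p = 0.0776) and on right sides alone (−0.78, adjusted p = 0.16).

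Slc2a1, the widely expressed glucose transporter, had 4675, 4489, 4024 and 3534 at E8.5, 2402, 2060, 1646 and 1867 at E10.5 and 1160, 1384, 962 and 1195 at E12.5. It fell by 1.03 and then by 0.70 on the log2 scale. Slc2a3 minus Slc2a1 changed by −1.32 in the first step (exact permutation p = 0.0286, 0.033 adjusted) and by −0.12 in the second, where embryos overlapped (exact permutation p = 0.771).

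The wider pathway gave the setting of these changes. Of 34 other genes of glucose uptake, glycolysis and pyruvate use, 30 had a probe annotated to their symbol. Gpi1 had none, although the study lists it in a cluster of decreasing expression. Of the 30, 11 were near background at every stage. Of the remaining 19, 11 fell, 3 rose and 5 did not pass between E8.5 and E12.5, where 50.1% of all probes over the noise limit passed. The 8 with the largest change included Hk2, an inducible hexokinase (from 4021 ± 262 through 2204 ± 260 to 1018 ± 164; SD, n = 4; log2FC −1.88), Pgk1, phosphoglycerate kinase (−1.87), Slc2a1 (−1.73), Pkm, pyruvate kinase (−1.33), and Tpi1, triosephosphate isomerase (−1.27). Pdk1, a kinase that inhibits pyruvate dehydrogenase, fell by 1.21 and the mitochondrial glycerol phosphate dehydrogenase gene Gpd2 by 1.08. Pgk1 had the largest SE of the 30 genes in the LIMMA fit (0.34), and did not pass in the second step (adjusted p = 0.247). Gapdh, often used as a reference gene, fell by 0.55, and its 5 probes fell by 0.55 to 1.03; its brightest probe also fell with median scaling (−0.71), normexp correction (−0.55) and the floor (−0.55).

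The genes that rose were Pfkfb2 (log2FC 1.23, adjusted p = 8.69e-09 from LIMMA), which sets the level of an activator of phosphofructokinase, Hk1, the main hexokinase of the adult brain (0.88, from 372 ± 60.2 to 788 ± 121; SD, n = 4), and Pfkm (0.68). Thus 1 hexokinase gene, Hk2, fell while another, Hk1, rose; Hk1 passed in the second step (0.60) and not in the first (0.27, adjusted p = 0.256). Other genes that fell were Pdk3, Pfkfb3 and Bpgm, the last at a signal of 40.1 or less. A dimmer probe of Tpi1, with means from 197 to 251, passed in the opposite direction to the brightest (log2FC 0.24, adjusted p = 0.0191). A second Bpgm probe did so too (0.18, adjusted p = 0.00972), but it was near background at every stage. In the first step 2 of the 30 rose and 11 fell (4.91% and 5.8% of all probes). In the second 4 rose and 9 fell (5.92% and 4.51% of all probes). Of probes over the noise limit, 28% and 27.3% passed in these steps. The counts include calls of Pklr and Ldhc that lay near background. The median log2FC of the 30 over both steps was −0.05. It includes the 11 genes near background at every stage, whose log2FC the constant holds near 0, and so does not describe the genes over the noise limit.

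**Figure D4:**
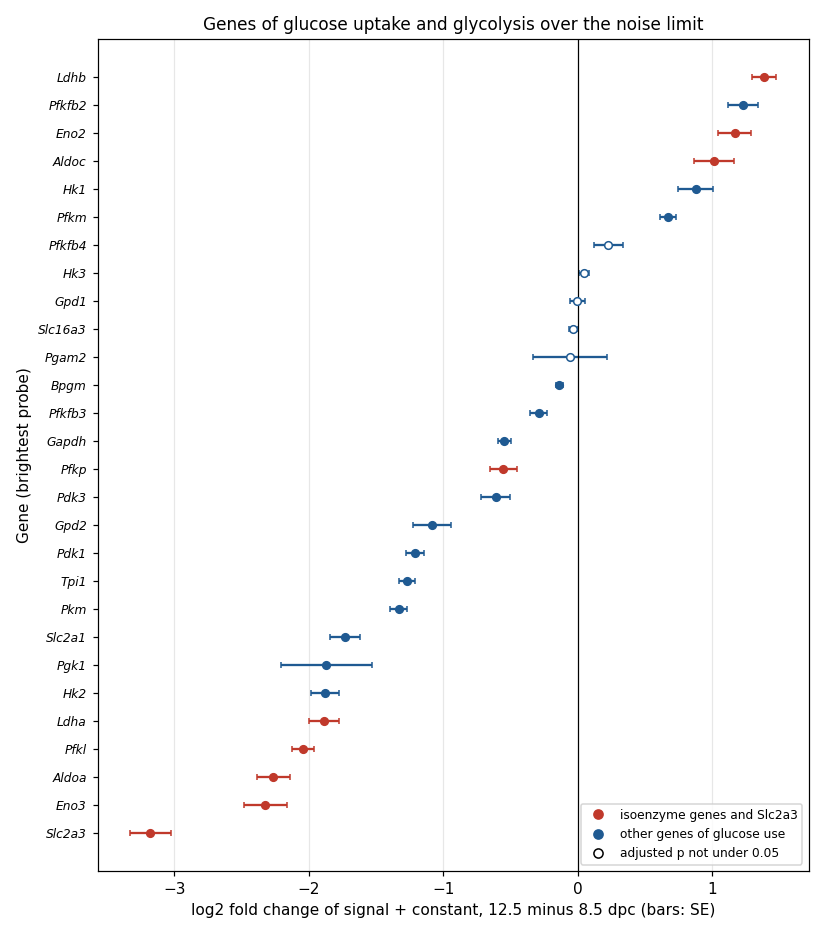
Log2 fold change from E8.5 to E12.5 (x axis, bars of 1 SE from LIMMA) of the 9 genes (red) and of 19 other genes of glucose use that were over the noise limit in at least 1 stage (blue); open points did not pass. The points run from Slc2a3 at −3.18 to Ldhb at 1.38, and most genes lie below 0.

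The sides of the head were compared within embryos. None of the 9 genes differed between left and right, over all stages or within any stage, at an adjusted p under 0.05 in LIMMA with the embryo as a block, and 0% of all probes did, although 4141 probes and 1 of the 9 genes had an unadjusted p under 0.05. That gene was Aldoa, which was higher on the left by 0.24 on the log2 scale in the mean and in 8 of 12 embryos (exact sign-flip permutation p = 0.0298, 0.268 after Benjamini-Hochberg over the 9 genes; adjusted p = 0.461 from LIMMA). In embryos 3 and 4 it was higher on the left in 6 of 6 pairs and in embryos 1 and 2 in 2 of 6, with mean differences of 0.51 and −0.04. At E10.5, for instance, the left and right signals were 2653 and 3220 in embryo 1 but 2971 and 1869 in embryo 3. Slc2a3 split in the same way, 6 of 6 and 2 of 6. The other 7 genes leaned the opposite way. They were higher on the left in 0 to 2 of 6 pairs in embryos 3 and 4, and in 3 to 6 of 6 in embryos 1 and 2. The lean was large for Pfkl (2 and 6) and Eno3 (0 and 5) and slight for Pfkp (2 and 3). The left and right arrays of each embryo lay in different sets of arrays, so side and set cannot be told apart in these differences. The stage changes of the 9 genes did not differ between sides at an adjusted p under 0.05 in any comparison (unadjusted p from 0.321 to 0.993).

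The sides of an embryo varied together within a stage more for some genes than for others. The intraclass correlation was 0.71 for Aldoc, 0.67 for Eno3, 0.58 for Eno2 and 0.57 for Ldha, and between 0.10 and 0.29 for the other 5, against a common value of 0.09 used for all probes. The SEs of the first 4 genes are thus likely too small, and with the sides averaged before the fit the first-step call of Eno3 was the only call of the 9 genes that was lost.

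Some genes followed these patterns closely over the 12 embryos, out of 5244 probes with a mean signal of at least 200. For Aldoa the highest Pearson correlations of log2 values were with Zdhhc6 (0.99), Rbpms (0.99) and Thop1 (0.99). For Slc2a3 they were with Gcnt1 (0.99), Nr6a1 (0.99) and Stxbp2 (0.99), and Nr6a1, a nuclear receptor of the early embryo, had means of 1962, 190 and 50.6. For Eno2 they were with Scamp5 (0.99), a synaptic vesicle protein, Tunar (0.99) and Dtx3 (0.99), and for Aldoc with Tunar (0.98), Rnf152 (0.98) and Ephb1 (0.97). Tunar, a transcript with means of 143, 72.3 and 482, was thus among the nearest to both Eno2 and Aldoc. All these points share their stages and arrays, and high values arise for any genes with like stage means.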

How the data were processed

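Per the labels and the study's methods, biotin-labelled RNA was hybridised to Illumina mouse WG-6 arrays. The deposited values are linear intensities after background subtraction by the authors in scanner software (GenomeStudio per the submitters' processing notes, BeadStudio per the methods). The study's quantile normalisation is not in them: array medians ran from 3.1 to 9.3, and 37.6% to 45.2% of values were at or below 0. Another table, with 72 columns of per-sample values named only by BeadChip (4) and position, was not used.

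A constant of 119.5 (lifting the lowest value, −103.5, to 16) was added, arrays were quantile normalised and log2 transformed, and LIMMA (limma 3.58.1, statmod 1.5.0, R 4.3.3) was fitted to 24 arrays with terms for stage and side, embryo being a random block with a correlation of 0.0893. The procedure was run on simulated data with the same correlation of sides for all probes and no sets of arrays. It therefore did not check the fit under those features of the data. Of the probes, 32794 had 1 symbol, 55 several and 13794 none in the platform annotation. The number of arrays, from 4 embryos a stage, limits the precision. Unequal change of paired genes was tested by exact permutation over embryos, and left against right with the embryo as a fixed block and by exact sign flips (4096 patterns). Alternatives were background correction, scaling, floor, sides, blocks and leaving out each embryo. Named genes were all members, pathway genes that passed (values for the 8 largest and those of opposite direction) and the 3 genes most alike to 4 of them. Members, lists, motifs and rules were chosen with earlier results of these data known. Pairs with Eno1 could not be run.

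Embryos are numbered alike at each stage in the labels. Embryos of the same number deviated together from their stage means (correlations from 0.32 to 0.77, over 0.1 in 4 of 4 numbers between any stages), but those of different numbers correlated from −0.78 to 0.82, above 0 within embryos 1 and 2 and within 3 and 4 and below 0 between these sets, and an embryo correlated best with its own number in 1 or 2 of 4. Fits with the number and with the 4 sets of arrays as a block were run.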

Additional observations from a re-analysis of the deposited data

Results flagged for a closer look

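The Aldoc signal of E12.5 embryo 1 was 562 against 201 to 224 in the other 3 embryos of the stage, a gap of 0.936 of the range, which is over the 95% limit of Dixon's test for 4 values. It was the only such value in 26 sets of 4 embryos, and chance gives about 1 in 20. Both sides of this embryo were high, and it also had the highest Eno2 signal (785) and the highest summed signal of neuronal genes (22720) of its stage. Its summed signal was the lowest of the stage for cranial mesenchyme (425.6 against 1807 to 2532) and for erythroid genes (11740 against 22550 to 33690). The part of these differences in its Aldoc signal was not tested.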

How the results depend on the processing

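Under 22 alternatives, 12 of them leaving out an embryo, 584 of 594 values of the 9 genes kept their direction and their side of the threshold, 6 lost and 4 gained a call, and 0 changed direction. The numbers of genes that changed in the first step, the second and both ranged from 7 to 9, 7 to 7 and 9 to 9 over the left-out embryos, and the count for left against right from 0 to 0. The replicate block changed no call (7, 7 and 9 genes). Over all probes it called 6814, 6870 and 12131, the 4 sets of arrays as a block 7862, 7978 and 12902, and right sides alone 1573, 1898 and 4930, against 4994, 4867 and 9708.

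Aldoc passed as lower in the first step with normexp background correction (−0.61, adjusted p = 0.0253) and with signals floored at 1 (−1.13, adjusted p = 0.00223). Of the 15 tests of pairs, 13 had p under 0.05. These include the second step of Pfkp minus Pfkl, where Pfkp was at or near the noise limit. The number was 10 with that floor. With it Pfkp minus Pfkl was 0.28 over both steps (exact permutation p = 0.457) and −0.68 in the first; with normexp the first was 0.33 (exact permutation p = 0.286). These depend on how signals near 0 are treated. Slc2a3 minus Slc2a1 in the second step ranged from −0.19 to 0.045 over left-out embryos, its sign turning without E12.5 embryo 1. Over left-out embryos the differences from E8.5 to E12.5 ranged from 2.97 to 3.40 for Aldoc minus Aldoa, −3.64 to −3.22 for Eno3 minus Eno2, 1.40 to 1.62 for Pfkp minus Pfkl, 3.18 to 3.34 for Ldhb minus Ldha and −1.52 to −1.29 for Slc2a3 minus Slc2a1. Of the 15 tests, 12 to 13 then had p under 0.05: Pfkp minus Pfkl in the first step was lost without any E10.5 embryo (exact permutation p = 0.0571 each). Pfkp and the E10.5 Aldoc signals lie near the noise limit, and their folds depend on the constant: over both steps the log2FC of Pfkp was −0.55, and −0.96 with normexp and −1.82 with the floor.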
